A study of Camelus dromedarius with 30 samples.

Results

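The kidney cortex of dromedary camels (Camelus dromedarius) that had been deprived of water and then watered again was compared with the cortex of camels that always had water, to see which genes still differed after the return of water. The 10 libraries of this comparison, of 30 in the series, are the count columns of the 5 rehydrated and 5 control cortex samples, matched to the samples by their library names. All camels were males of 4 to 5 years fed alfalfa hay. Control camels drank freely, rehydrated camels went 20 days without water and then drank freely for 3 days, and 5 dehydrated camels, used below for side by side values, were sampled after 20 days without water. Each library was made from poly(A)-selected RNA of a powdered piece of frozen cortex from a different animal, so a level reflects the whole mixture of cells in that piece. The medulla of the same groups, 15 further libraries, served as a reference for the tissue.

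The cortex holds the glomeruli and the proximal tubules, which take back most of the filtered water, salt, amino acids and phosphate and degrade filtered protein in lysosomes. The medulla holds the loops of Henle and the collecting ducts, where urine is concentrated through the water channel AQP2 under the control of vasopressin. A piece of cortex can include medullary rays and the outer edge of the medulla, so cortex samples may differ in how much medulla they contain. After drinking, vasopressin falls and the urine is diluted again.

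The cortex libraries held 12634346 to 15443065 counted read pairs in control camels and 14143791 to 17593990 in rehydrated camels, and 15376 genes passed the filter on low counts. Levels are given in CPM (a gene's share of the read pairs counted in a library, scaled by TMM), and fold changes as log2 of the rehydrated over the control level. The variation between libraries of a group, estimated over all 30 libraries of both tissues, was 34% (biological coefficient of variation). Symbols were known for 3764 of the tested genes, mostly genes or proteins that the study listed as changed in these camels, so the members of a gene list that carried a symbol are a selected part of it and are not independent evidence of its direction. The RNA integrity number, as the series' design text gives it, was 8.1 ± 0.5 (SD, n = 5) for control, 7.7 ± 0.2 (SD, n = 5) for dehydrated and 7.6 ± 0.6 (SD, n = 5) for rehydrated cortex, lower in both treated groups.

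After 3 days of water, 13 genes differed between rehydrated and control cortex, 0.0845% of those tested (edgeR's quasi-likelihood test, Benjamini-Hochberg adjusted p under 0.05). This fit took in all 30 libraries of both tissues. None passed in fits of the 10 compared libraries alone or of the 15 cortex libraries alone. Of the 13 genes, 8 were higher and 5 lower. The higher ones included the Wnt ligand gene WNT7B, the cell adhesion gene PCDH8, the secreted protease inhibitor gene WFDC1 and the NF-kappa-B cofactor gene BCL3, and the lower ones included CTSA, which encodes the lysosomal enzyme cathepsin A. At an unadjusted p under 0.05 there were 1273 genes (8.28%), 661 higher (4.3%) and 612 lower (3.98%). The levels of the 5 rehydrated and the 5 control libraries did not overlap for 166 genes (1.08%), 56 of them higher (0.364%) and 110 lower (0.715%). For comparison, 376 genes (2.45%) passed between dehydrated and control cortex and 356 (2.32%) between rehydrated and dehydrated cortex in the same fit. Both comparisons share libraries with the present one, so their values are only set side by side here.

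PCDH8 encodes protocadherin-8, a calcium-dependent cell adhesion protein, and lies on chromosome 14 (CamDro2, 21774565 to 21779014). Its level in the control libraries 1 to 5 was 0.255, 0.437, 0, 0.0872 and 0.557 CPM, in the dehydrated libraries 6.26, 0.546, 0.964, 8.39 and 2.27 CPM and in the rehydrated libraries 1.38, 12.1, 1.66, 5.06 and 8.82 CPM. Every rehydrated library was above every control library, and the second and the fifth rehydrated library were the highest. The mean was 0.267 ± 0.233 CPM (SD, n = 5) in control and 5.80 ± 4.63 CPM (SD, n = 5) in rehydrated cortex, and the log2 fold change was 4.37 ± 0.65 (SE, adjusted p = 2.21e-04 from edgeR). In the medulla the mean was 0.0639 CPM in control and 0.0830 CPM in rehydrated camels.

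WNT7B is the ligand that collecting duct cells send to the surrounding stroma during growth of the medulla. It lies on chromosome 12 (64204956 to 64257775). Its control cortex levels were 0.765, 0.146, 1.28, 1.05 and 1.30 CPM, the dehydrated ones 11.1, 23.3, 37.9, 12.1 and 22.3 CPM and the rehydrated ones 4.28, 7.02, 29.0, 5.06 and 12.8 CPM. The rehydrated levels lay above all control levels, with the third library highest, and their mean was below that of the dehydrated camels. The mean was 0.907 ± 0.478 CPM (SD, n = 5) in control and 11.6 ± 10.3 CPM (SD, n = 5) in rehydrated cortex, and the log2 fold change was 3.71 ± 0.53 (SE, adjusted p = 7.73e-04 from edgeR). WNT7B was far more abundant in the medulla, with a mean of 127 ± 28.6 CPM (SD, n = 5) in control and 143 ± 24.2 CPM (SD, n = 5) in rehydrated camels. The part of medulla content in the WNT7B level of the cortex was not tested.

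LRATD1 encodes a protein with a lecithin-retinol acyltransferase-like domain and lies on chromosome 15 (9518967 to 9519845). The control libraries held 2.47, 1.02, 0, 0.610 and 1.30 CPM, the dehydrated libraries 2.44, 1.73, 5.10, 2.40 and 5.41 CPM and the rehydrated libraries 2.52, 9.44, 8.41, 8.16 and 12.5 CPM. The first rehydrated library was only just above the highest control library, and the other 4 were far above both. The mean was 1.08 ± 0.917 CPM (SD, n = 5) in control and 8.21 ± 3.63 CPM (SD, n = 5) in rehydrated cortex, and the log2 fold change was 2.90 ± 0.44 (SE, adjusted p = 0.00198 from edgeR). In the medulla its log2 fold change between rehydrated and control camels was 1.40 (adjusted p = 0.0334 from edgeR).

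WFDC1 encodes a small secreted protein of the whey acidic protein family. It lies on chromosome 9 (52673078 to 52687649). Its control levels were 16.8, 18.6, 17.7, 20.7 and 27.1 CPM, its dehydrated levels 30.1, 21.9, 16.2, 21.1 and 21.5 CPM and its rehydrated levels 35.6, 38.0, 49.3, 42.1 and 40.1 CPM. The rehydrated libraries stood above every control and every dehydrated library, and the dehydrated libraries overlapped the controls. The mean was 20.2 ± 4.11 CPM (SD, n = 5) in control and 41.0 ± 5.22 CPM (SD, n = 5) in rehydrated cortex, and the log2 fold change was 1.02 ± 0.16 (SE, adjusted p = 0.00312 from edgeR). Between rehydrated and dehydrated cortex the log2 fold change of WFDC1 was 0.89 (adjusted p = 0.00317 from edgeR).

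BCL3, a nuclear member of the I-kappa-B family that is induced by cytokines, lies on chromosome 9 (5202923 to 5212198). The control cortex held 7.31, 9.89, 13.6, 10.8 and 11.8 CPM, the dehydrated cortex 17.5, 24.1, 13.0, 41.0 and 28.2 CPM and the rehydrated cortex 15.0, 88.0, 62.9, 76.1 and 12.8 CPM. The rehydrated libraries fell apart, with 3 of them between 62.9 and 88.0 CPM and the first and the fifth near the controls, so the groups overlapped. The mean was 10.7 ± 2.33 CPM (SD, n = 5) in control and 50.9 ± 35 CPM (SD, n = 5) in rehydrated cortex, and the log2 fold change was 2.26 ± 0.47 (SE, adjusted p = 0.0498 from edgeR).

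CPA1, the gene of the digestive enzyme carboxypeptidase A1, was at the limit of detection in control cortex. Its 5 control libraries held 1, 2, 0, 0 and 1 read pairs, and the rehydrated libraries held 4, 34, 11, 9 and 9. The rehydrated mean of 1.04 CPM was 3.97 times the level that 3 pairs in each control library would give, and the ratio of the summed counts was 14.8 (exact 95% interval of counting error 5.52 to 55.9). The adjusted p was 0.0498 (edgeR), and no fitted fold change is given at such counts. The dehydrated libraries held 0.382, 0.818, 0.227, 0.771 and 1.26 CPM.

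CTSA, on chromosome 19 (31968602 to 31974505), was the most abundant of the 13 genes. Cathepsin A is a carboxypeptidase that also protects beta-galactosidase and neuraminidase-1 in the lysosome. The control libraries held 402, 383, 387, 538 and 558 CPM, the dehydrated libraries 266, 309, 260.0, 337 and 313 CPM and the rehydrated libraries 250.2, 234, 250.0, 226 and 334 CPM. All rehydrated libraries were below all control libraries, with the fifth the highest of them. The mean was 454 ± 86.9 CPM (SD, n = 5) in control and 259 ± 43.4 CPM (SD, n = 5) in rehydrated cortex, and the log2 fold change was -0.81 ± 0.15 (SE, adjusted p = 0.0184 from edgeR). CTSA had a log2 fold change of -0.61 between dehydrated and control cortex (adjusted p = 0.0193 from edgeR), a comparison that uses the same 5 control libraries.

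PGBD2, a gene derived from a piggyBac transposon, lies on chromosome 3 (2347289 to 2417113). The control levels were 49.2, 62.9, 44.0, 49.4 and 56.5 CPM, the dehydrated levels 28.8, 36.8, 42.1, 35.4 and 29.6 CPM and the rehydrated levels 30.0, 33.7, 32.6, 39.0 and 33.4 CPM. The rehydrated and the dehydrated levels covered nearly the same range and lay below the control range. The mean was 52.4 ± 7.36 CPM (SD, n = 5) in control and 33.8 ± 3.28 CPM (SD, n = 5) in rehydrated cortex, and the log2 fold change was -0.63 ± 0.12 (SE, adjusted p = 0.0194 from edgeR).

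No symbol was paired with 5 of the 13 genes. ENSCDRG00005013510 (chromosome 9, 3260974 to 3272110) held 0.851, 1.53, 1.58, 3.31 and 0.371 CPM in control and 7.8, 8.11, 6.66, 8.37 and 2.51 CPM in rehydrated cortex, so that 4 rehydrated libraries stood above the controls and the fifth within them. The mean was 1.53 ± 1.12 CPM (SD, n = 5) in control and 6.69 ± 2.43 CPM (SD, n = 5) in rehydrated cortex, and the log2 fold change was 2.12 ± 0.42 (SE, adjusted p = 0.0261 from edgeR). It was scarce in the medulla, with a mean of 0.114 CPM in control camels. ENSCDRG00005003497 (chromosome 3, 25189853 to 25191536) held 13.3, 6.98, 7.19, 6.02 and 10.9 CPM in control and 10.5, 23.8, 15.1, 23.3 and 24.1 CPM in rehydrated cortex, where the first library lay within the control range. The mean was 8.86 ± 3.07 CPM (SD, n = 5) in control and 19.4 ± 6.19 CPM (SD, n = 5) in rehydrated cortex, and the log2 fold change was 1.13 ± 0.23 (SE, adjusted p = 0.0456 from edgeR). The other 3 were lower after rehydration, with no overlap between the groups. ENSCDRG00005017770 (chromosome 15, 27581211 to 27639553) fell from 96.9, 106, 77.0, 85.2 and 95.9 CPM in control to 61.8, 62.4, 43.0, 61.7 and 50.2 CPM in rehydrated cortex. The mean was 92.2 ± 11.3 CPM (SD, n = 5) in control and 55.8 ± 8.80 CPM (SD, n = 5) in rehydrated cortex, and the log2 fold change was -0.72 ± 0.15 (SE, adjusted p = 0.0456 from edgeR). ENSCDRG00005003322 (chromosome 9, 8301752 to 8308207) fell from 2.47, 4.07, 3.06, 2.44 and 3.25 CPM to 0.917, 1.09, 0.263, 1.20 and 1.29 CPM. The mean was 3.06 ± 0.671 CPM (SD, n = 5) in control and 0.952 ± 0.409 CPM (SD, n = 5) in rehydrated cortex, and the log2 fold change was -1.65 ± 0.32 (SE, adjusted p = 0.0331 from edgeR). ENSCDRG00005005355 (chromosome 18, 15362680 to 15363309) had the lowest counts of the genes that fell, with 0.510, 0.728, 2.17, 1.05 and 1.39 CPM in control and 0, 0, 0.175, 0.281 and 0.287 CPM in rehydrated cortex, 2 of these being 0. The mean was 1.17 ± 0.650 CPM (SD, n = 5) in control and 0.149 ± 0.143 CPM (SD, n = 5) in rehydrated cortex, and the log2 fold change was -2.84 ± 0.55 (SE, adjusted p = 0.0199 from edgeR). Chromosome 9 carried 4 of the 13 genes and 6.58% of the tested genes.

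**Figure D1:**
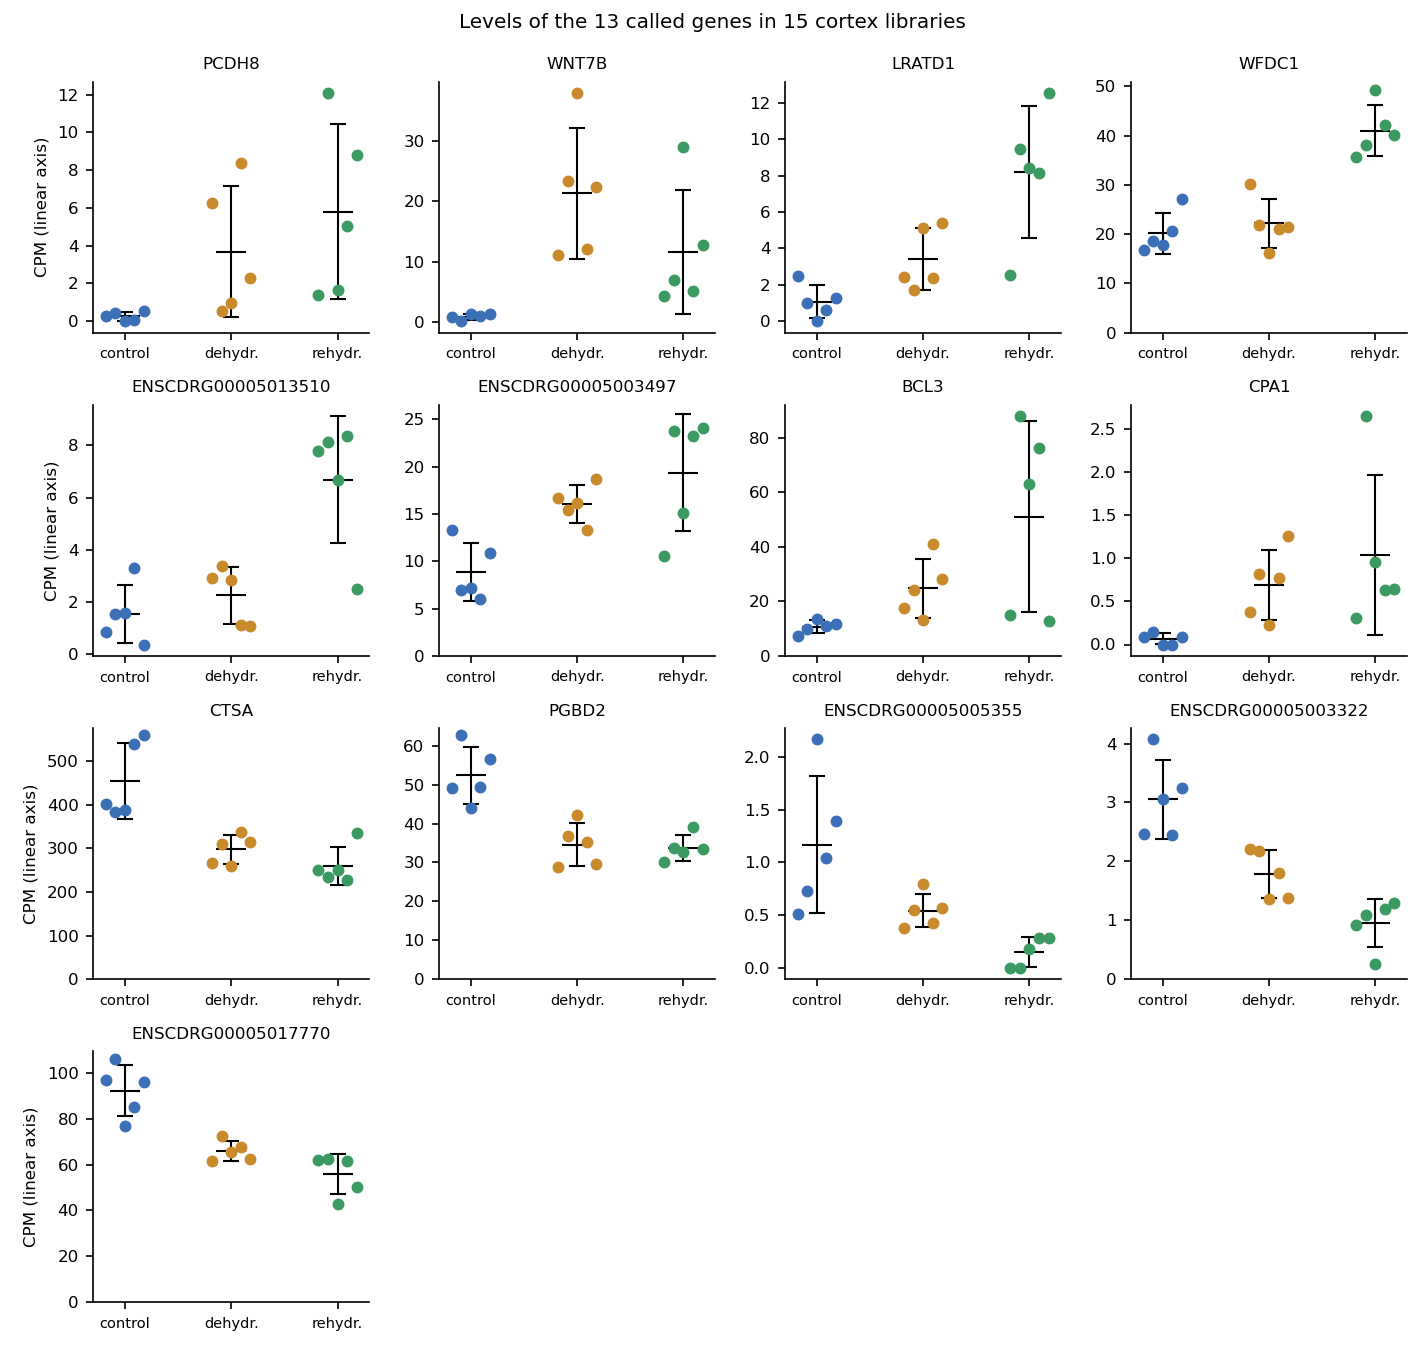
Levels in CPM (linear axes) of the 13 genes that passed between rehydrated and control cortex, for the 5 control, 5 dehydrated and 5 rehydrated cortex libraries; points are libraries and bars are the mean ± SD. The groups do not overlap for 10 of the 13 genes, and BCL3, ENSCDRG00005013510 and ENSCDRG00005003497 have rehydrated libraries within the control range.

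Of the 13 genes, PCDH8, WNT7B, LRATD1 and WFDC1 passed in each of the 10 fits that left out 1 of the compared libraries, with adjusted p up to 0.0211 (edgeR). CTSA and PGBD2 passed in 7 of these fits, and BCL3 in 2. The count of genes was 8 without control replicate 2, 8 without control replicate 4, 4 without control replicate 5, 4 without rehydration replicate 2 and 35 without rehydration replicate 1. Fitted on the 15 cortex libraries alone, no gene passed with edgeR, with 1151 genes at an unadjusted p under 0.05 (8.3%), and on the 10 compared libraries alone none passed either, with 827 at that level (6.14%). DESeq2 on all libraries called 121 genes and limma-voom 4. With the RNA integrity number as a covariate 5 genes passed, PCDH8, WNT7B, LRATD1, WFDC1 and PGBD2. The match of integrity numbers to some libraries of the treated groups is uncertain.

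How far the profile of each cortex sample lay towards the medulla was described as a position between the tissues, computed over all tested genes. Here 0 is the mean of control cortex and 1 the mean of control medulla. Whether this position measures medulla content within the cortex was not tested. Control cortex libraries were each scored against the other 4, which widens their spread, and rehydrated libraries against all 5 controls. The positions were 0.272, 0.269, -0.242, 0.0295 and -0.0788 in control cortex, 0.157, 0.0516, 0.262, -0.0419 and 0.208 in dehydrated cortex and 0.223, -0.100, -0.0953, 0.317 and 0.112 in rehydrated cortex. The control libraries spanned both the lowest and nearly the highest of these positions, and the rehydrated libraries lay within or close to that span. All 15 medulla libraries lay between 0.796 and 1.27, so no cortex library came near the medulla. The mean was 0.05 ± 0.223 (SD, n = 5) in control and 0.0913 ± 0.187 (SD, n = 5) in rehydrated cortex, a difference of 0.0413 (exact permutation test, two-sided, p = 0.754). With the dehydrated camels as the axis, where both groups are scored alike, the difference was 0.0404 (exact permutation test, p = 0.770). On that axis the control positions ran from -0.297 to 0.173 and the rehydrated ones from -0.196 to 0.270.

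**Figure D2:**
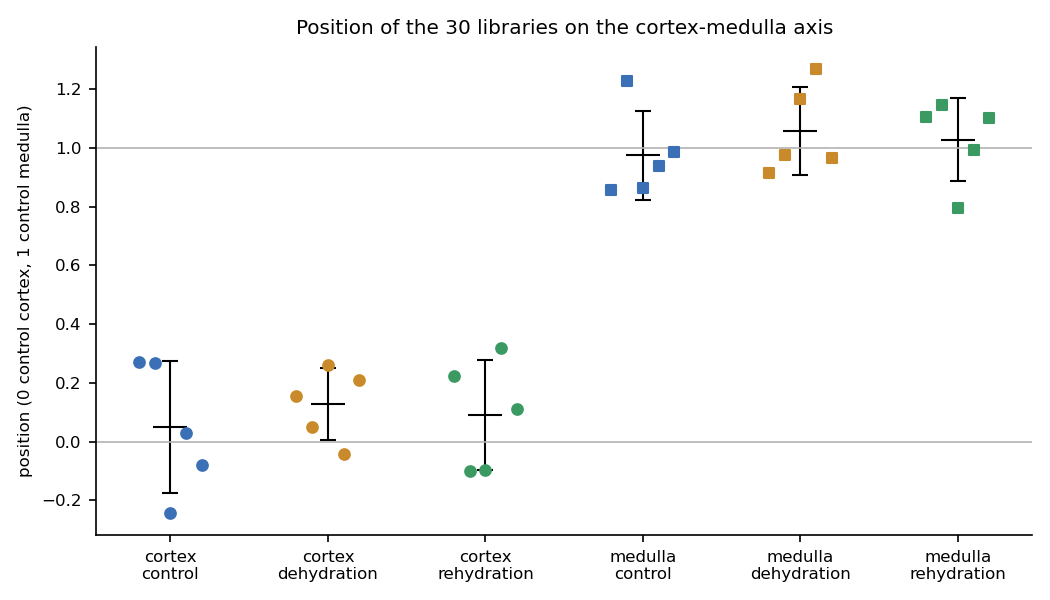
Position of each of the 30 libraries between control cortex (0) and control medulla (1), without unit, by tissue and condition; points are libraries and bars are the mean ± SD of 5. Cortex libraries sit between -0.242 and 0.317 and medulla libraries between 0.796 and 1.27, and control and rehydrated cortex have overlapping ranges.

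The spread of the libraries along the tissue axis was also expressed as a share. Along the axis drawn from the dehydrated camels, which are not in the comparison, lay 15.1% of the squared deviations of the control cortex libraries from their mean and 14.9% of those of the rehydrated libraries. Of the squared difference between the means of the rehydrated and the control cortex, 1.62% lay along it.

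The tissue label was checked against markers. Of 28 proximal tubule markers 11 carried a symbol, and their summed level was 3706 to 7339 CPM in control cortex and 4347 to 6116 CPM in rehydrated cortex, against 307 to 1302 CPM in control medulla. Of 21 medulla markers 9 carried a symbol, among them the thick ascending limb gene UMOD and the collecting duct gene AQP2, with sums of 8716 to 9859 CPM in control cortex, 8182 to 11121 CPM in rehydrated cortex and 21757 to 28286 CPM in control medulla. Both lists gave overlapping sums in control and rehydrated cortex, and both separated cortex from medulla, although 3 of the 9 medulla markers, HSD11B2, CLDN10 and KRT19, were lower in the medulla than in the cortex of dehydrated camels. The 3 measured markers of the distal convoluted and connecting tubules, led by the calcium-binding protein gene CALB1, varied more between cortex samples than these lists. Their sum was 689 to 2341 CPM in control and 632 to 2499 CPM in rehydrated cortex, against 57.4 to 397 CPM in control medulla.

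The positions did not follow the summed medulla markers from sample to sample. In that sum UMOD and CLU had the highest means, 3609 and 3106 CPM in control cortex. Among the 10 compared libraries, the 4 with the highest positions, control 1 and 2 and rehydrated 1 and 4, held the 4 highest sums of distal convoluted and connecting tubule markers (1867 to 2499 CPM), and the other 6 held 632 to 1468 CPM. In the dehydrated cortex these sums were 502 to 863 CPM in all 5 libraries, including libraries 3 and 5 at positions of 0.262 and 0.208. In the 4 libraries the sums of medulla markers, 8182 to 9859 CPM, lay within the range of the other 6, 8605 to 11121 CPM, except that rehydrated library 4 was the lowest of all. Single markers differed. EGF was at 842, 1503, 669, 919 and 769 CPM in control and 1195, 474, 505, 1114 and 469 CPM in rehydrated cortex. Its highest levels, in control 2 and rehydrated 1 and 4, were all among the 4 libraries. By contrast, AQP2 was highest in control 3 and CLDN10 in rehydrated 3. Control library 3, at the lowest position, also had the lowest sum of proximal tubule markers. These patterns were noticed after the values were seen, and whether the axis within the cortex measures medulla content was not tested. Endothelial markers (3 measured) summed to 219 to 269 CPM in control and 215 to 276 CPM in rehydrated cortex, and stromal and smooth muscle markers (5 measured) to 529.9 to 648 CPM and 514 to 745 CPM. SYNPO, listed as a glomerular marker, was at 0.887 to 3.40 CPM in control and 0.964 to 7.74 CPM in rehydrated cortex. Its mean was 9.22 CPM in control medulla against 2.09 CPM in control cortex, so its level cannot be read as glomerular content here. The adipocyte marker FABP4 was at 0.296 to 1.96 CPM in control and 0.382 to 6.39 CPM in rehydrated cortex. None of the marker genes passed between rehydrated and control cortex in the fit of all libraries, and no immune cell or urothelial marker carried a symbol here. In this bulk tissue, fewer cells of a type and less RNA per cell cannot be told apart.

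**Figure D3:**
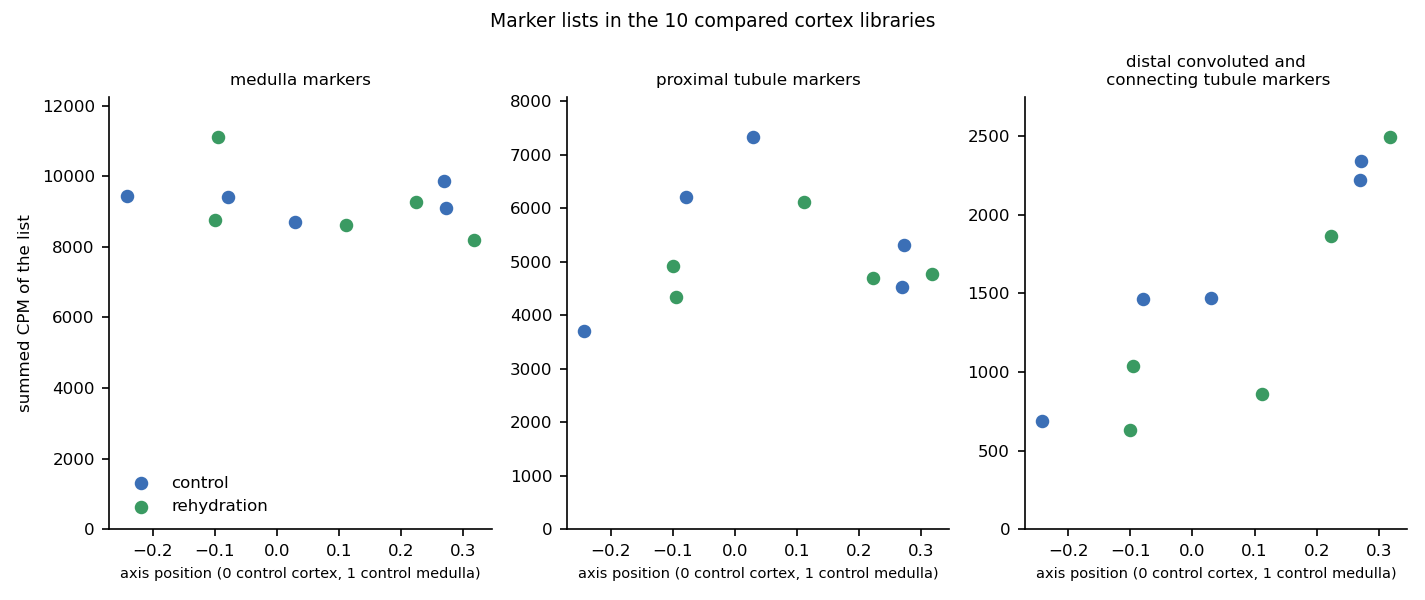
Summed CPM of the 9 medulla, 11 proximal tubule and 3 distal convoluted and connecting tubule markers (linear axes from 0) against the axis position of the 5 control and 5 rehydrated cortex libraries, 1 point per library. The distal and connecting tubule sum is highest, 1867 to 2499 CPM, in the 4 of these 10 libraries at the highest positions, whereas the medulla sums stay between 8182 and 11121 CPM throughout.

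The position was then entered as a covariate in a fit of the 15 cortex libraries, in which no gene had passed without it. With it, 164 genes passed (1.18% of 13869), 83 higher (0.598%) and 81 lower (0.584%), including the 11 of the 13 genes that this fit could test. CPA1 and ENSCDRG00005005355 were left out by its filter on low counts. The position is computed from the same counts as the genes it adjusts, and the control libraries enter both the axis and the comparison. From the fit of these 15 libraries without the position to that with it, the log2 fold change of CTSA went from -0.80 (adjusted p = 0.0524 from edgeR) to -0.78 (adjusted p = 0.00609 from edgeR). That of PCDH8 went from 4.37 (adjusted p = 0.0852 from edgeR) to 4.48 (adjusted p = 0.0190 from edgeR).

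Most measured lysosomal genes had lower levels after rehydration, and 1 of them, CTSA, passed. Lysosomes of the proximal tubule degrade the proteins taken up from the filtrate, and the list covers their proteases, glycosidases, lipid-handling proteins and membrane proteins. Of 57 genes listed, 28 carried a symbol and were tested, 22 with a lower and 6 with a higher level after rehydration. Of all genes 0.0325% passed lower. Here 16 members, CTSA included, had an unadjusted p under 0.05 with lower levels, against 3.98% of all tested genes and 8.00% of tested genes with a symbol. The list's median log2 fold change was -0.39, beside 0.02 over all tested genes. Members carry symbols mainly because the study listed them as changed in these camels, so this count is not independent evidence of the direction.

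TPP1 and FUCA2 had some of the smallest p-values of the list after CTSA. TPP1, the protease tripeptidyl peptidase 1, was at 297, 310.1, 197, 281 and 283 CPM in control and 184, 160.0, 139, 195 and 208 CPM in rehydrated cortex, with control library 3 the only one within the rehydrated range (log2 fold change -0.63 ± 0.16, SE, adjusted p = 0.154 from edgeR). FUCA2, a secreted fucosidase, was at 118, 114, 126, 130.3 and 132 CPM and 108, 89.3, 96.0, 86.7 and 92.8 CPM, with no overlap. The following members were named after their values were seen. CTSB, the protease cathepsin B, had the highest level of the list, with means of 3101 CPM in control and 1810.0 CPM in rehydrated cortex and a log2 fold change of -0.78, with an adjusted p of 0.154 (edgeR). The proton pump subunit gene TCIRG1 had the highest log2 fold change of the list, 0.99 (adjusted p = 0.348 from edgeR). With the axis position as a covariate, 6 lysosomal genes passed lower, among them CTSA, TPP1, FUCA1 and NEU1, and TCIRG1 passed higher. In that fit 0.584% of all tested genes passed lower and 0.598% higher, and the list's median was -0.37. In dehydrated against control cortex the list's median was -0.27 and 3 members passed lower (1.17% of all genes passed lower there), and in the medulla the median between rehydrated and control was -0.09.

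**Figure D4:**
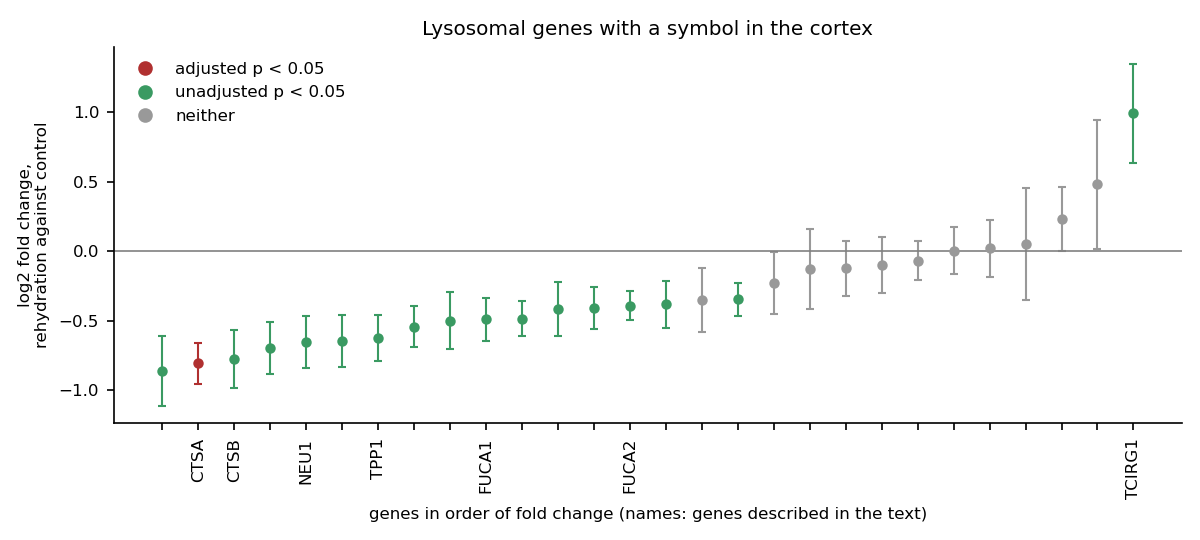
Log2 fold change of rehydrated against control cortex for the 28 lysosomal genes with a symbol; points are fitted values, bars are ± SE, and colours mark an adjusted p under 0.05, an unadjusted p under 0.05 or neither, and names mark the genes described in the text. Of these 28 genes, 22 lie below 0 and 16 of them have an unadjusted p under 0.05, CTSA alone an adjusted one.

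Of 12 measured acute phase and cytokine-related genes, 10 had higher levels after rehydration, and BCL3 passed. The list holds the fibrinogen chains, targets and members of the interleukin-6 and STAT3 pathway and related factors, and 12 of its 22 genes carried a symbol, again mainly from the study's lists of changed genes. Of all genes 0.052% passed higher. Here 7 members, BCL3 included, had an unadjusted p under 0.05 with higher levels, and 1, the kinase gene TYK2, with a lower level. The share with higher levels was 4.3% of all tested genes and 6.30% of tested genes with a symbol. The median log2 fold change was 1.43, beside 0.33 in dehydrated against the same control libraries. FGB, the fibrinogen beta chain, was at 22.9, 54.1, 30.4, 92.0 and 50.4 CPM in control, 151, 72.1, 160.2, 298 and 513 CPM in dehydrated and 85.3, 732, 1320.0, 777 and 166 CPM in rehydrated cortex. Rehydrated libraries 2, 3 and 4 were the highest, as for BCL3, and the first was within the control range. FGB had a log2 fold change of 3.62 ± 0.76 (SE, adjusted p = 0.0527 from edgeR). BCL6, a transcriptional repressor, was at 10.7, 10.6, 6.50, 8.28 and 3.99 CPM in control and 13.5, 28.4, 18.0, 56.6 and 14.3 CPM in rehydrated cortex, without overlap (log2 fold change 1.70, adjusted p = 0.0517 from edgeR). MYC, the growth-promoting transcription factor, was at 10.6, 17.2, 7.98, 11.0 and 10.2 CPM and 19.9, 38.9, 27.3, 64.6 and 18.9 CPM, also without overlap (log2 fold change 1.57, adjusted p = 0.107 from edgeR). MYC shares its strand with 2 overlapping gene models, so its counts are uncertain.

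With the position as a covariate, BCL3, BCL6, FGB and GADD45G passed higher and TYK2 lower (GADD45G, a growth arrest gene, and TYK2 were named after their values were seen). In that fit 0.598% of all tested genes passed higher and 0.584% lower. In the medulla, between rehydrated and control camels, the log2 fold changes were 0.43 for BCL3, 0.67 for BCL6, 0.87 for FGB and 0.15 for MYC, none of which passed (0.813% of genes passed in that comparison). Of the same list SBNO2, a transcriptional regulator induced by interleukins, passed there with 1.21 (adjusted p = 0.0447 from edgeR) and CHI3L1, a secreted chitinase-like protein, with 2.95 (adjusted p = 0.0125 from edgeR), both named after their values were seen.

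No measured gene of the list on vitamin D, calcium and phosphate passed, and 4 of 9 had an unadjusted p under 0.05, all with higher levels. The share with higher levels was 4.3% of all tested genes and 6.30% of those with a symbol. Calcitriol acts through its receptor VDR and induces CYP24A1, the enzyme that degrades it. CYP24A1 was at 80.0, 60.6, 19.5, 16.6 and 20.8 CPM in control, 307, 245, 221, 308 and 209 CPM in dehydrated and 112, 171, 499, 439 and 909 CPM in rehydrated cortex. All rehydrated libraries lay above all control libraries, over a wide range (log2 fold change 3.43 ± 0.77, SE, adjusted p = 0.0751 from edgeR). VDR was at 77.7, 136, 73.3, 83.6 and 130.0 CPM in control and 83.2, 1329.6, 115, 311 and 284 CPM in rehydrated cortex, where the second library stood far above the rest and the first and the third lay within the control range (log2 fold change 2.08 ± 0.54, SE, adjusted p = 0.154 from edgeR). SLC34A2, a sodium-phosphate cotransporter, was at 6.29, 10.0, 14.5, 12.6 and 2.60 CPM and 23.5, 20.5, 70.3, 20.6 and 25.4 CPM, without overlap (log2 fold change 1.80, adjusted p = 0.194 from edgeR). It was more abundant in the medulla, at means of 141 CPM in control and 196 CPM in rehydrated camels. The part of medulla content in its cortex level was not tested. CLDN4, a tight junction protein, was at 28.9, 35.8, 30.4, 20.3 and 24.2 CPM and 32.2, 72.6, 82.9, 45.7 and 63.0 CPM, with the first rehydrated library within the control range (log2 fold change 1.08, adjusted p = 0.154 from edgeR). The 9 members measured, of 23 listed, had a median log2 fold change of 0.01. With the position as a covariate CYP24A1 (adjusted p = 0.00553 from edgeR) and CLDN4 (adjusted p = 0.0284 from edgeR) passed. In that fit 0.598% of all tested genes passed higher.

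Along chromosome 7, 3 genes of the neighbourhood of CPA1 had higher levels after rehydration, CPA5 (65941795 to 65960995), CPA1 (65970086 to 65976616) and the imprinted gene MEST (66068017 to 66080989). MEST was at 2.98, 4.15, 0.197, 2.01 and 2.60 CPM in control, 7.25, 6.55, 7.88, 4.62 and 7.30 CPM in dehydrated and 5.73, 11.4, 4.99, 8.51 and 6.52 CPM in rehydrated cortex, without overlap between rehydrated and control (log2 fold change 1.60 ± 0.35, SE, adjusted p = 0.0651 from edgeR), and a second gene model overlaps it on the same strand. CPA5 was at 0.340, 0.800, 0.591, 0 and 1.02 CPM in control and 0.994, 9.13, 5.87, 2.39 and 9.46 CPM in rehydrated cortex, the first of which lay within the control range (log2 fold change 3.32 ± 1.02, SE, adjusted p = 0.222 from edgeR). The adjacent gene COPG2 (66081865 to 66201057), for a coat protein of Golgi vesicles, had a log2 fold change of -0.29, with an adjusted p of 0.787 (edgeR). Of 9 genes listed here 5 were measured, and 1, CPA1, passed (0.052% of all genes passed higher). An unadjusted p under 0.05 with higher levels was found for 3, CPA1, CPA5 and MEST (4.3% of all genes, 6.30% of those with a symbol). The median was that of MEST. The list lies around CPA1, itself among the genes that passed, and holds CPA5, named in earlier results of these data. Its counts are therefore not independent evidence. CEP41, a centrosomal protein gene of the list, had a log2 fold change of -0.12, with an adjusted p of 0.980 (edgeR), and was named after its value was seen. In the medulla CPA5 had a log2 fold change of -2.28, with an adjusted p of 0.0696 (edgeR).

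Genes of cholesterol synthesis, 12 of which were lower in dehydrated cortex (1.17% of all genes were), did not pass after 3 days of water. Of 25 genes of the pathway and its regulator SREBP2, 23 were tested, and none passed between rehydrated and control cortex, where 1 (INSIG1) had an unadjusted p under 0.05. Their median log2 fold change was -0.21, with 20 members below 0, beside a median of -1.14 in dehydrated cortex against the same controls. SQLE, the enzyme that oxidizes squalene, was at 375, 522, 415, 472 and 671 CPM in control, 148, 164, 122, 262 and 90.1 CPM in dehydrated and 314, 531, 278, 425 and 235 CPM in rehydrated cortex. Its rehydrated libraries spread from the dehydrated range to the control range (log2 fold change against control -0.46 ± 0.25, SE, adjusted p = 0.681 from edgeR). INSIG1, which holds SREBP2 in the endoplasmic reticulum, was at 41.1, 51.2, 40.8, 29.5 and 57.9 CPM, 11.1, 9.82, 11.6, 10.6 and 19.0 CPM and 36.5, 21.7, 23.8, 28.7 and 16.8 CPM in these groups, with 4 of the rehydrated libraries below the control range (log2 fold change -0.79 ± 0.27, SE, adjusted p = 0.295 from edgeR). EBP, a sterol isomerase of the pathway, had a log2 fold change of -0.40 and an adjusted p of 0.664 (edgeR). THRSP, a regulator of fatty acid synthesis, was at 35.2, 33.7, 17.0, 34.1 and 28.8 CPM, 4.58, 3.73, 6.18, 4.11 and 3.65 CPM and 27.1, 9.67, 11.7, 15.4 and 11.8 CPM, between the other groups in 4 of 5 rehydrated libraries (log2 fold change -0.97 ± 0.35, SE, adjusted p = 0.364 from edgeR).

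**Figure D5:**
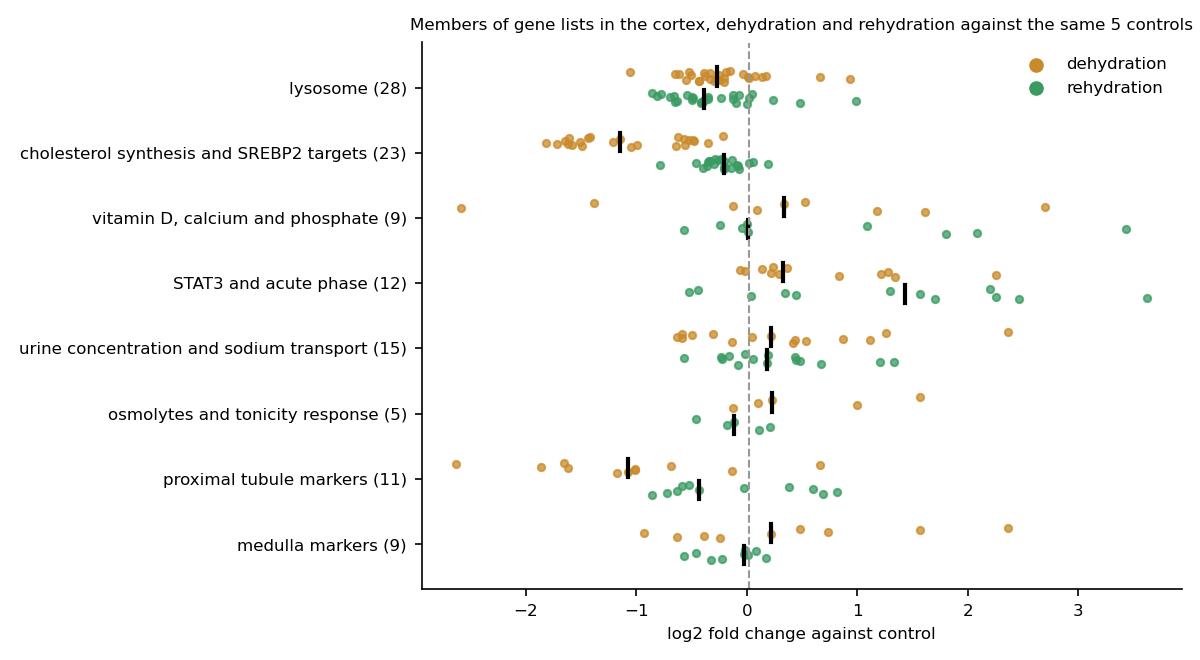
Log2 fold changes against control of the tested members of 8 gene lists (numbers in brackets) in dehydrated and rehydrated cortex; points are genes, black bars are medians, and the dashed line is the median of all tested genes. Both comparisons use the same 5 control libraries. Cholesterol genes lie at a median of -1.14 in dehydration and -0.21 in rehydration, and lysosomal genes at -0.27 and -0.39.

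The water channels AQP1 and AQP2 had fold changes of opposite sign, and neither passed in the edgeR fit of all libraries. The study's own DESeq2 results list AQP1 as significantly upregulated in rehydrated against control cortex. AQP1, the constitutive channel of the proximal tubule and descending limb, was at 3214, 2773, 2987, 3696 and 4577 CPM in control, 5258, 4538, 7024, 10436 and 10099 CPM in dehydrated and 4100.3, 7854, 9006, 6413 and 12335 CPM in rehydrated cortex. Only the first rehydrated library lay within the control range (log2 fold change 1.20 ± 0.27, SE, adjusted p = 0.0766 from edgeR). With the axis position as a covariate AQP1 passed (log2 fold change 1.23, adjusted p = 0.0284 from edgeR), the only one of its list. In that fit 0.598% of all tested genes passed higher. In the medulla the log2 fold change of AQP1 was -0.38 (adjusted p = 0.554 from edgeR). AQP2, the vasopressin-regulated channel of the collecting duct, was at 239, 159, 244, 158 and 194 CPM in control, 237, 261, 255, 243 and 159 CPM in dehydrated and 112, 99.7, 174, 157 and 128 CPM in rehydrated cortex, with 4 of 5 rehydrated libraries below every control library (log2 fold change -0.57 ± 0.22, SE, adjusted p = 0.426 from edgeR). The sodium-proton exchangers SLC9A3 and SLC9A7 had log2 fold changes of 1.33 (adjusted p = 0.567 from edgeR) and 0.67 (adjusted p = 0.601 from edgeR). Of 15 measured genes of urine concentration and sodium transport none passed in the edgeR fit of all libraries, and the median was 0.19. An unadjusted p under 0.05 was found for 3 with higher and 1 with lower levels. Over all tested genes these shares were 4.3% and 3.98%, and over those with a symbol 6.30% and 8.00%. None of 5 measured osmolyte and tonicity genes had an unadjusted p under 0.05, with a median of -0.11. For the clock only 2 of 20 genes carried a symbol, of which CIART, a clock repressor, was at 19.8, 21.8, 9.56, 21.6 and 16.2 CPM in control and 6.57, 9.21, 3.77, 12.2 and 7.45 CPM in rehydrated cortex (log2 fold change -1.18, adjusted p = 0.125 from edgeR). The medulla value of CIART was -2.15 (adjusted p = 0.00178 from edgeR). Of 10 genes named in earlier results for their response to dehydration, WNT7B and LRATD1 passed (0.052% of all genes passed higher), and the median was 0.53. These genes were picked from earlier results that use the same 5 control libraries, so their count is not independent evidence.

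Of the 3764 tested genes with a symbol, 67 had an unadjusted p under 0.01, groups without overlap and a mean of at least 1 CPM. Of all tested genes, 1.08% had groups without overlap and 8.28% an unadjusted p under 0.05. Among the 67 genes the highest fold changes beyond those above were of ANGPTL4 and GPR132. ANGPTL4, an inhibitor of lipoprotein lipase induced by fasting, was at 1.62, 1.89, 3.45, 3.75 and 1.95 CPM in control, 17.7, 33.4, 10.5, 9.42 and 13.7 CPM in dehydrated and 4.97, 17.9, 12.1, 7.88 and 6.38 CPM in rehydrated cortex (log2 fold change 1.97, adjusted p = 0.315 from edgeR). GPR132, a receptor of the G protein-coupled family, was at 0.510, 0.437, 0.493, 0.262 and 0.649 CPM and 0.917, 3.43, 1.66, 0.703 and 1.86 CPM in control and rehydrated cortex (log2 fold change 1.85, adjusted p = 0.175 from edgeR). The lowest fold change was of DNASE1, the secreted nuclease, on an unplaced scaffold. It was at 45.5, 56.4, 167, 109.8 and 128 CPM in control, 289, 263, 243, 158 and 150.5 CPM in dehydrated and 30.7, 20.1, 37.3, 37.5 and 35.3 CPM in rehydrated cortex. Of the dehydrated libraries 3 lay above every control library, and all rehydrated libraries lay below every control library (log2 fold change -1.65 ± 0.37, SE, adjusted p = 0.0751 from edgeR), and between rehydrated and dehydrated cortex DNASE1 passed with a log2 fold change of -2.78, with an adjusted p of 2.33e-04 (edgeR). In the medulla DNASE1 was more abundant, at means of 2626 CPM in control and 994 CPM in rehydrated camels. Its log2 fold change there was -1.40 (adjusted p = 0.0540 from edgeR). The part of medulla content in its cortex level was not tested.

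FBXL21P, an F-box gene, was at 46.7, 84.6, 35.8, 58.5 and 48.1 CPM in control and 24.4, 9.36, 14.5, 28.4 and 20.5 CPM in rehydrated cortex, while its dehydrated levels of 69.9, 69.4, 67.8, 59.2 and 41.0 CPM lay within the control range (log2 fold change between rehydrated and control -1.49, adjusted p = 0.166 from edgeR). CDA, which deaminates cytidine, was at 15.1, 12.5, 16.3, 21.6 and 21.2 CPM and 9.02, 8.97, 7.88, 4.57 and 7.24 CPM in control and rehydrated cortex (log2 fold change -1.20, adjusted p = 0.154 from edgeR). SLC28A2, which takes up purine nucleosides, was at 12.5, 12.6, 8.97, 15.8 and 11.3 CPM and 7.57, 6.32, 2.45, 7.66 and 4.16 CPM (log2 fold change -1.11, adjusted p = 0.214 from edgeR). The other 3 were GPR19, SYPL2 and ANXA9, with log2 fold changes of -1.29, -1.14 and -0.98 and adjusted p of 0.207, 0.202 and 0.254 (edgeR).

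HBB, the haemoglobin beta gene and the only red blood cell marker with a symbol, did not pass in the fit of all libraries. It was at 15.0, 14.0, 1.87, 1.74 and 11.3 CPM in control, 5.26, 0.909, 1.53, 1.80 and 1.38 CPM in dehydrated and 1.07, 3.20, 0, 0.492 and 1.00 CPM in rehydrated cortex, and its control libraries 3 and 4 lay as low as rehydrated ones (log2 fold change -2.93 ± 0.83, SE, adjusted p = 0.194 from edgeR). With the axis position as a covariate it passed (log2 fold change -2.92, adjusted p = 0.0372 from edgeR). The part of blood left in the tissue in the differences of other genes was not tested.

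Whether the residual change of the cortex differed from that of the medulla was tested by the interaction of tissue and condition. No gene passed (0% of 15376 in edgeR), and 780 genes had an unadjusted p under 0.05 (5.07%). This fit takes the cortex and medulla of a camel as independent. An alternative added after seeing the data took cortex and medulla of the same condition and title number as a camel, and each camel as a block. No gene passed there either (edgeR, 715 genes at an unadjusted p under 0.05). Which rehydrated cortex and medulla libraries come from the same camel is uncertain. With the replicate number as a block WNT7B passed (adjusted p = 0.0375 from edgeR). Without a block the smallest adjusted p was that of WNT7B, 0.0901 (edgeR), whose log2 fold change was 3.53 higher in the cortex than in the medulla. Next was CPA5, with a difference of 5.60 (adjusted p = 0.346 from edgeR). DESeq2 called both of these and no other gene, and limma-voom called none.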

How the data were processed

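Kidney cortex and medulla of 15 camels were sequenced as poly(A)-selected, paired-end libraries. Per the labels and the study's methods, the authors trimmed reads with BBDuk, aligned them to CamDro2 (Ensembl release 100) and deposited counts of read pairs per gene made with featureCounts 1.6.2 with strand. The aligner is STAR in the methods, while the table's column names point to Rsubread. From these counts, genes were kept by edgeR's filterByExpr (minimum count 10, total 15), scaled by TMM and tested by edgeR 4.0.16 (R 4.3.3) with glmQLFit in its current, not legacy, form over 6 groups of all 30 libraries, after the scripts were tested on simulated data. Log2 CPM used a prior count of 2. The axis position is each library's projection on the line from mean control cortex to mean control medulla, leaving the library itself out of the means. DESeq2 1.42.0 and limma 3.58.1 (voom) gave alternatives. The RNA integrity number of each library, used as a covariate in another alternative, was read from the supplement of the study. It was matched by group and by the replicate number of the title. Some library names of the treated groups carry other numbers than the supplement's sample names, so the match is uncertain there. Symbols for 3794 of 22444 identifiers came from the study's lists (3652), RefSeq (140) and its text (2). Named genes were all that passed, the 8 highest and 8 lowest fold changes among non-overlapping genes with a symbol, an unadjusted p under 0.01 and a mean of at least 1 CPM, and up to 4 members of each list, a few of which are not reported here. The comparison, lists and tests were chosen with earlier results of these data known. Replicates were separate animals by the labels. Intervals on counts cover counting error only.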

Additional observations from a re-analysis of the deposited data

Results flagged for a closer look

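In 5 of 28 groups of 5 libraries checked, the gap between the highest or lowest library and its nearest neighbour, as a share of the group's range in log2 CPM, exceeded Dixon's critical value of 0.71. Chance alone flags about 1 group in 20. WNT7B was low in control library 2 (share 0.720, log2 CPM -1.95). LRATD1 was low in rehydrated library 1 (share 0.729, log2 CPM 1.40). CTSA was high in rehydrated library 5 (share 0.741, log2 CPM 8.39). ENSCDRG00005013510 was low in rehydrated library 5 (share 0.808, log2 CPM 1.39), and ENSCDRG00005003322 was low in rehydrated library 3 (share 0.765, log2 CPM -1.41).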

How the results depend on the processing

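The count of 13 genes depended on the fit. It was 121 with DESeq2, 4 with limma-voom, 8 with no filter on low counts, 5 with the RNA integrity number as a covariate and 6 with edgeR's legacy fit, an alternative chosen after seeing the data. It was 0 with edgeR on the 15 cortex libraries alone (1151 genes at an unadjusted p under 0.05), 0 on the 10 compared libraries alone (827 genes) and 164 on the 15 with the axis position as a covariate. Leaving out 1 library gave 4 to 35 genes. The count was 35 without rehydration replicate 1, 4 without rehydration replicate 2 or control replicate 5, and 8 without control replicate 2 or 4. Of 248 alternative fits of the 12 genes that passed and have a fold change, 155 kept their side of the threshold, 93 lost it and none reversed. For the other 32 genes, 625 of 670 fits kept it and 45 passed. The tissue difference, with 0 genes (edgeR), had 2 with DESeq2 and 0 to 1 with 1 library left out, the 1 being WNT7B without rehydration replicate 1 or 4. The difference in axis position was -0.164 with marker lists (in log2 CPM), and ranged from -0.0317 without control replicate 3 to 0.0968 with 1 library left out, with -0.0152 without rehydration replicate 4. The causes were not tested.

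With the replicate number as a block, 12 genes passed, 11 of them shared with the 13. The tissue difference then had 1 gene (WNT7B, adjusted p = 0.0375 from edgeR), against 0 with each camel as a block (edgeR). Camels taken by condition and title number gave 715 genes at an unadjusted p under 0.05, and by the numbers in the library names 902. Both were added after seeing the data. With the replicate number as a block the difference in position stayed at 0.0413 (exact sign-flip permutation p = 0.75, smallest possible 0.0625). Same-numbered control and rehydrated cortex libraries come from different camels, and their deviations correlated at a mean of 0.0752 (lowest -0.392, highest 0.406), with 1 of 5 best with its own number, so they share only a number. In rehydrated camels the numbers in the titles and in the library names differ between cortex and medulla. Their deviations correlated at a mean of 0.0487 by title number (5 pairs), 0.351 by library name (4 pairs) and -0.0982 otherwise (16 pairs), a check chosen after seeing the data.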
